A study of Homo sapiens with 4 samples.

Results

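The fatty acid elongases ELOVL1 to ELOVL7 and the desaturases FADS1, FADS2 and FADS3 were examined in U87MG cells silenced for caspase-2. A gene was taken where the array annotation ties a probe set, the group of short probes that measures a transcript, to its symbol alone. All 10 genes had such a probe set, 1 each, out of 32321 probe sets in all and 18404 genes with a probe set of 1 symbol. The family was chosen by a measured value, the decrease of ELOVL5 on these same arrays. The change of ELOVL5 is therefore given as a description with no test, and the other 9 genes, compared on the same arrays, are described beside it.

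Elongases and desaturases build the long, very long and polyunsaturated acyl chains of membrane lipids in the endoplasmic reticulum. An ELOVL enzyme condenses an activated fatty acid with malonyl-CoA, and a reductase, a dehydratase and a second reductase then complete the cycle, which lengthens the chain by a pair of carbons. FADS1 and FADS2 insert double bonds into polyunsaturated chains and alternate with ELOVL5 and ELOVL2 on the route from dietary linoleic and alpha-linolenic acid to arachidonic and docosahexaenoic acid. In brain, these products are abundant in the phospholipids of neural membranes, and several of the genes are known in mouse liver as targets of the lipid-regulating factor SREBP-1c.

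The cells, U87MG, are an established line from a human glioblastoma. Total RNA was hybridized to 4 Affymetrix arrays, 2 from cells transfected with a siRNA against CASP2 and 2 from cells transfected with a control siRNA, and both arrays of a group are labelled as biological replicates. All cells were grown under the same conditions in serum-containing medium, which itself supplies fatty acids. The labels name Dharmacon as the siRNA supplier. From it the methods list a CASP2 oligo and a control that is its mutated form, while the other oligos came from Qiagen. The labels do not state the oligo itself, and they give no time of harvest.

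The CASP2 probe set, which checks the labels, had log2 values of 8.79 and 8.52 with the CASP2 siRNA, against 10.74 and 10.69 with the control siRNA. This left 24.0% of the control level (log2 difference -2.06, SE 0.13). Its adjusted p from limma was 0.9999, and no gene named below had a lower one; for CASP2 it was 0.062 with the trend and robust options of eBayes. After adjustment over the 32321 probe sets, limma left 0 (0.0%) under 0.05 and so did the methods' t-test, while without adjustment 979 (3.03%) were under 0.05 by limma and 100 by the methods' t-test. The CASP2 siRNA arrays differed from each other with an SD of 0.348 across probe sets and the control arrays with an SD of 0.205. Array medians lay between 6.18 and 6.28. Of 9 measured markers of glioma cells, 8 lay above the upper quartile of every array. Among markers of other cell types, 1 of 7 for astrocytes did, and 0 of 6 for neurons, 0 of 4 for oligodendrocytes, 0 of 6 for microglia and leukocytes, 0 of 5 for endothelium and 0 of 5 for hepatocytes and epithelium. Summed log2 values did not overlap between the groups for markers of glioma cells (104.0 to 104.2 in silenced and 103.6 to 103.9 in control cells), astrocytes (43.79 to 44.29 in silenced and 43.43 to 43.76 in control cells) and oligodendrocytes (20.83 to 21.77 in silenced and 21.85 to 21.94 in control cells), and their part in the results was not tested. Of single probe sets, 15.1% had both silenced arrays below both control arrays and 14.5% above, so such a separation by itself is common. The oligodendrocyte sum holds MOG by its brightest probe set, which had a log2 difference of -0.48. Further probe sets of MOG had 1.05 and -0.061.

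ELOVL5, which elongates polyunsaturated acyl chains, was lower on both arrays of silenced cells. Its log2 values were 11.94 and 11.93 with the CASP2 siRNA and 12.39 and 12.42 with the control siRNA. The groups did not overlap, and the gap between them, 0.46 between the nearest arrays, was wider than the distance between the arrays of either group (0.0032 in silenced cells and 0.030 in control cells). The log2 difference was -0.47 (SE 0.089, 95% confidence interval -0.71 to -0.23), so that 72.1% of the control level remained. This is a 1.39-fold decrease and lies inside the 1.5-fold limit of the study. The probe set lay above the upper quartile of every array.

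**Figure D1:**
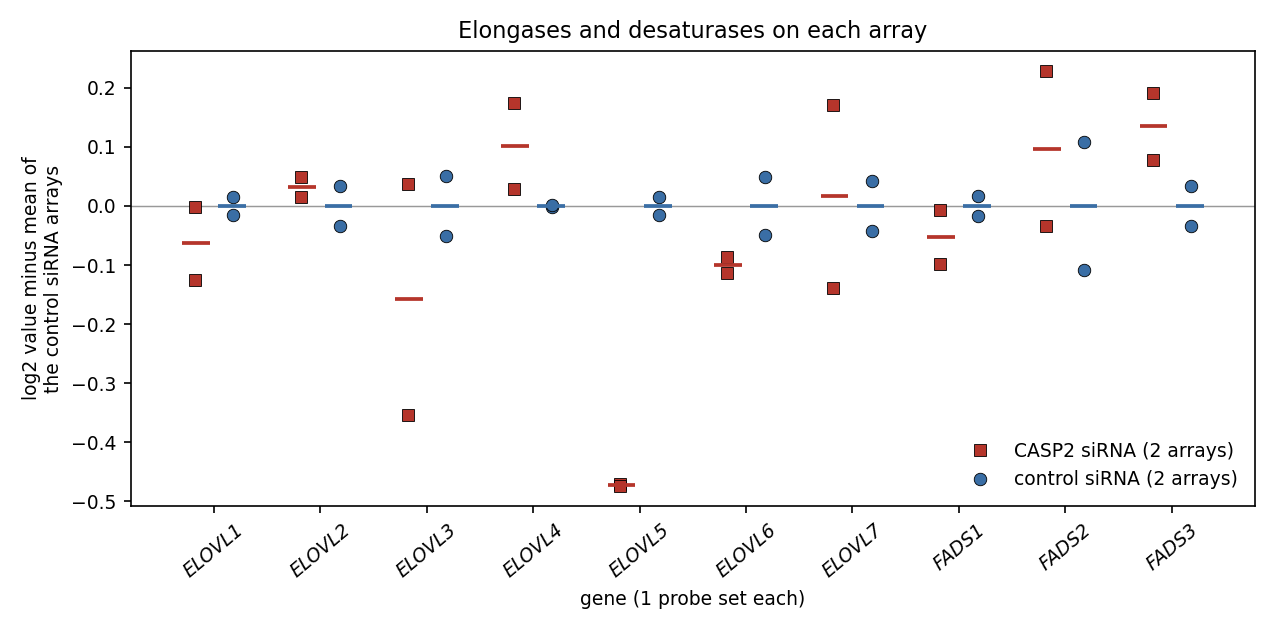
Log2 value minus the mean of the control siRNA arrays (y axis) for the 10 genes (x axis, 1 probe set each). Each point is 1 array, squares are CASP2 siRNA, circles are control siRNA and short lines are group means (n = 2 arrays each). ELOVL5 lies near -0.47 on both silenced arrays, while ELOVL3, ELOVL7 and FADS2 have silenced arrays on both sides of 0.

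The genomic sequence before the ELOVL5 start is shown beside that of ELOVL1, so that the gene with the decrease can be read next to an elongase whose groups overlapped and which also lay above the upper quartile of every array. Both windows are the 250 bases upstream of the start in RefSeq (GRCh38.p14), read 5′ to 3′ on the strand of the gene. Capitals mark 4 motifs, each searched on both strands, namely CCAAT, the GC box GGGCGG, the E-box CACGTG and the cAMP response element TGACGTCA, the last added after the ELOVL5 window had been read. In ELOVL1 the CCAAT match overlaps a GC box by 2 bases.
ELOVL5 (chr6:53348951-53349200, minus strand): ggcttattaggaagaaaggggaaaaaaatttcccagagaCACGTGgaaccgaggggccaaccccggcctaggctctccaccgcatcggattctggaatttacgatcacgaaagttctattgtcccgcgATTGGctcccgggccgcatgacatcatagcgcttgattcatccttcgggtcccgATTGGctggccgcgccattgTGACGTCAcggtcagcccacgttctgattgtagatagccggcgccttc
ELOVL1 (chr1:43368012-43368261, minus strand): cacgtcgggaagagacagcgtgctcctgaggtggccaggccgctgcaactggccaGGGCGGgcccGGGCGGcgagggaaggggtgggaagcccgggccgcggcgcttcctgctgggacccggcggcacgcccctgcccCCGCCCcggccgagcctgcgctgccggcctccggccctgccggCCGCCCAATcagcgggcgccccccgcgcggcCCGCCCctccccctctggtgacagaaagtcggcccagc

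The ELOVL5 window held 2 CCAAT matches, 1 E-box, 1 cAMP response element and 0 GC boxes, at 56.0% G and C. The ELOVL1 window held 1 CCAAT match, 5 GC boxes and neither of the others, at 79.6% G and C. No other of the 10 genes held as many GC boxes, so this contrast is the widest among them. ELOVL7, also an elongase with overlapping groups above the upper quartile of every array, held 4 GC boxes at 80.8% G and C. In ELOVL5 the cAMP response element began 48 bases and the CCAAT matches 68 and 122 bases before the start. Of 35116 windows of this length in RefSeq, 32.0% held CCAAT, 42.6% a GC box, 6.34% the E-box and 1.65% the cAMP response element. Over the 10 genes, 5 held CCAAT, 9 a GC box in at least 1 window, 2 the E-box (ELOVL4 and ELOVL5) and 2 the cAMP response element (ELOVL5 and FADS1). These counts are per gene and the shares per window. The median G and C of all windows was 58.0%, beside 56.0% to 84.8% before the 10 genes, and its part in the counts was not tested. The core sterol response element TCACNCCAC was found before 0 of the 10 genes and in 0.883% of all windows. These are matches of letters and not measured binding sites.

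ELOVL2, named above beside ELOVL5 on the route to docosahexaenoic acid, where it acts on the longer substrates, was dim on these arrays. Its log2 values were 3.94 and 3.90 with the CASP2 siRNA and 3.85 and 3.92 with the control siRNA, below the lower quartile of every array, and the groups overlapped. The log2 difference was 0.032 (95% confidence interval -0.21 to 0.28), and at such a level a change of the transcript may not show in the probe set.

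The elongases of saturated and monounsaturated chains showed smaller differences than ELOVL5. ELOVL6, which converts palmitate to stearate, had log2 values of 10.76 and 10.73 with the CASP2 siRNA and 10.80 and 10.89 with the control siRNA. Both silenced arrays lay below both control arrays, by 0.038 at the nearest, less than the 0.098 between the control arrays, and the log2 difference was -0.10 (SE 0.095, interval -0.35 to 0.15). ELOVL1, which makes very long saturated chains for sphingolipids, was at 12.43 and 12.30 with the CASP2 siRNA and 12.44 and 12.41 with the control siRNA, with overlapping groups and a log2 difference of -0.063 (interval -0.32 to 0.20). ELOVL1 and ELOVL6 thus both had values below 0, with intervals that hold 0.

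ELOVL3, known from mouse skin and brown fat, depended on 1 array. Its log2 values were 7.29 and 6.90 with the CASP2 siRNA and 7.20 and 7.31 with the control siRNA, so only replicate 2 of the silenced cells was low. The log2 difference of -0.16 (SE 0.16, interval -0.59 to 0.27) was 0.037 without that array. ELOVL7, another elongase of saturated chains, had silenced arrays on either side of the controls, at 9.57 and 9.26 with the CASP2 siRNA and 9.36 and 9.44 with the control siRNA. Its log2 difference was 0.016 (interval -0.35 to 0.39), and it was 0.17 from replicate 1 of the silenced cells alone and -0.14 from replicate 2 alone.

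ELOVL4, the elongase of ultra-long chains of retina and skin, lay on the other side of 0 from ELOVL5. Its log2 values were 8.73 and 8.59 with the CASP2 siRNA and 8.56 and 8.56 with the control siRNA. Both silenced arrays were above both control arrays, but by 0.028 at the nearest, beside 0.15 between the silenced arrays themselves. The log2 difference was 0.10 (SE 0.10, interval -0.17 to 0.37).

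The front-end desaturases, whose genes lie together on chromosome 11, had log2 differences between -0.053 and 0.13. FADS1, the delta-5 desaturase, had log2 values of 11.80 and 11.89 with the CASP2 siRNA and 11.88 and 11.91 with the control siRNA, a log2 difference of -0.053 (interval -0.30 to 0.20) with overlapping groups. FADS2, the delta-6 desaturase that opens the route, was at 10.53 and 10.79 with the CASP2 siRNA and 10.46 and 10.67 with the control siRNA. Its arrays were spread in both groups, by 0.26 in silenced and 0.22 in control cells, and the log2 difference of 0.097 (SE 0.14, interval -0.29 to 0.48) was within that spread. FADS3, which acts on sphingoid bases, was at 8.81 and 8.92 with the CASP2 siRNA and 8.70 and 8.77 with the control siRNA. Both silenced arrays were above both control arrays, by 0.045 at the nearest, and the log2 difference was 0.13 (SE 0.099, interval -0.13 to 0.40). A smaller change than these intervals allow could not be seen with 2 arrays a group.

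Set against its relatives, ELOVL5 stood apart in size. The other 9 genes had log2 differences from -0.16 for ELOVL3 to 0.13 for FADS3, with 5 above 0 and 4 below, and their median was 0.016, beside -0.00089 over all 18404 genes. The ELOVL5 value lay 0.49 below that median. For single arrays, each gene was taken less its own mean over the control arrays. On the silenced arrays ELOVL5 then lay 0.51 (replicate 1) and 0.47 (replicate 2) below the median of the others. The control arrays mirror each other about 0 by this centring. Their distance of 0.020 thus shows only how far they lay apart and is no independent contrast. All 9 of the other intervals held 0. In 8 of them the whole interval lay above the ELOVL5 value of -0.47, the exception being ELOVL3, which reached -0.35 when replicate 1 of the silenced cells was left out. ELOVL5 has an interval of its own, and only 3 of the 9 (ELOVL2, ELOVL4 and FADS3) had intervals wholly above it. Because ELOVL5 was picked for its decrease, the distance describes these arrays and was not tested.

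**Figure D2:**
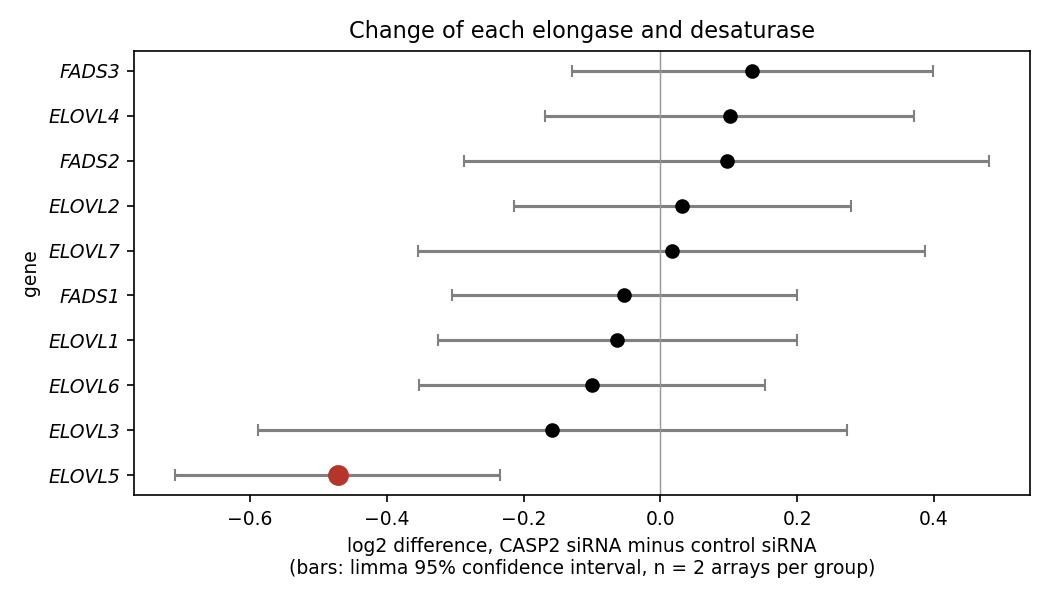
For each of the 10 genes (y axis, ordered by value), the log2 difference between CASP2 siRNA and control siRNA arrays (x axis) with limma 95% confidence intervals as bars (n = 2 arrays per group). ELOVL5, chosen for its decrease and marked in red, lies at -0.47, and the other 9 lie between -0.16 and 0.13.

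Counts over the family stood as follows. No gene of the 10 passed a fold of 1.5 with an unadjusted p under 0.05, thresholds that 0.362% of all probe sets passed downwards and 0.331% upwards. Among the 18404 genes with a probe set of 1 symbol, 24 passed them downwards and 10 upwards. Both silenced arrays lay below both control arrays for 2 genes (ELOVL5 and ELOVL6) and above them for 2 (ELOVL4 and FADS3). Of all probe sets 15.1% lay below in this sense and 14.5% above, so that such a separation by itself is common on these arrays. Of all probe sets 1.26% had a log2 difference of -0.47 or lower, and of the 7695 above the upper quartile of every array 0.247% did (19, with ELOVL5 among them). In 7 of the 10 genes the silenced arrays lay farther apart than the control arrays.

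**Figure D3:**
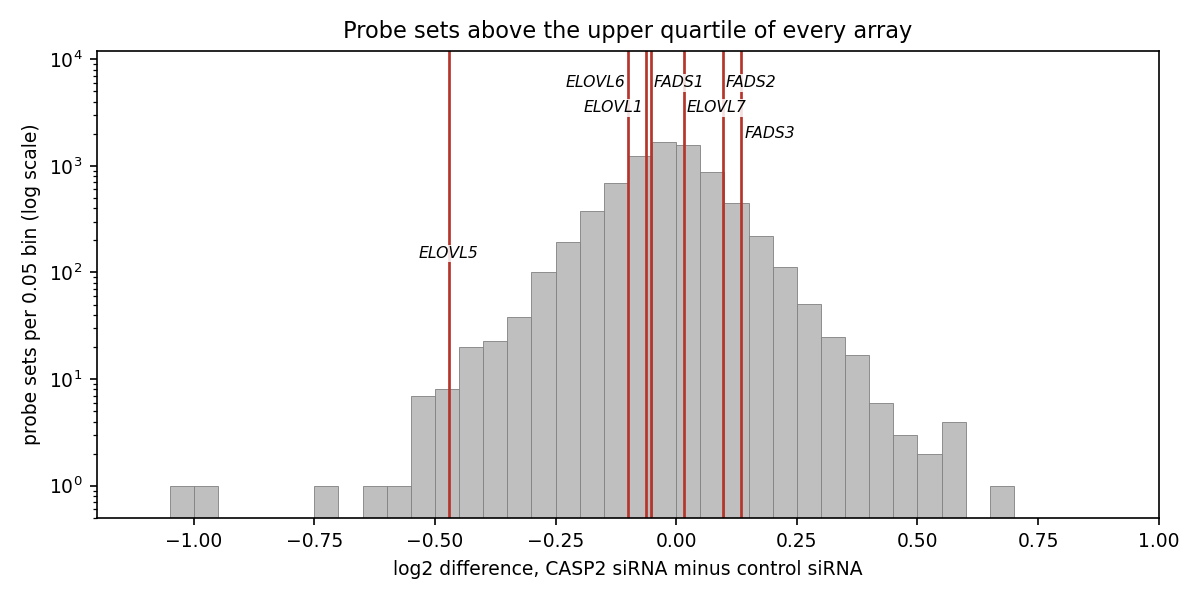
Number of probe sets (y axis, log scale) by log2 difference (x axis, CASP2 siRNA minus control siRNA, bins of 0.05) among the 7695 above the upper quartile of every array. Red lines mark the 7 elongases and desaturases in that set, of which ELOVL5 at -0.47 lies in the lower tail and the other 6 between -0.10 and 0.13.

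The genes that complete the elongation cycle had log2 differences between -0.0088 and 0.13. HSD17B12, the ketoacyl-CoA reductase, had log2 values of 11.07 and 11.16 with the CASP2 siRNA and 10.99 and 10.99 with the control siRNA, a log2 difference of 0.13 (interval -0.12 to 0.38). The dehydratases HACD2, HACD3 and HACD4 had log2 differences of -0.00036, 0.083 and -0.0088, and HACD4 was dim, below the lower quartile throughout. TECR, the enoyl-CoA reductase, had -0.0018 in its brighter probe set and 0.13 in a further one. Of the 5 measured genes of this list, 2 lay above 0 and 3 below, and the median was -0.00036. Both silenced arrays lay below both controls for 0 of them and above for 2, HSD17B12 and HACD3, beside 15.1% and 14.5% of all probe sets. HACD1 has no probe set of its own symbol alone.

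Other desaturases and the cytochrome b5 system that feeds electrons to them were examined next. SCD, the stearoyl-CoA desaturase of monounsaturated chains, was at 11.99 and 12.09 with the CASP2 siRNA and 12.14 and 12.29 with the control siRNA. Both silenced arrays were lower than both controls, and the interval of the log2 difference of -0.17 held 0 (-0.46 to 0.11). SCD5, its brain-enriched relative, had 0.038, and DEGS1, the dihydroceramide desaturase, -0.032. FADS6 (0.32, interval -0.31 to 0.94) and DEGS2, a sphingolipid desaturase (0.17, interval -0.48 to 0.81), were high on replicate 2 of the silenced cells only. Of these 5 desaturases, 3 lay above 0, with a median of 0.038. The cytochrome b5 genes CYB5A and CYB5B had log2 differences of 0.032 and 0.023, and the reductases CYB5R1, CYB5R2, CYB5R3 and CYB5R4 had 0.021, -0.056, 0.062 and -0.046. Their median was 0.022 and 4 of the 6 lay above 0.

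Upstream of the elongases, fatty acid synthesis supplies palmitate. ACLY, the ATP citrate lyase, had log2 values of 11.61 and 11.57 with the CASP2 siRNA and 11.81 and 11.82 with the control siRNA, a log2 difference of -0.22 (interval -0.46 to 0.015) with groups that did not overlap. Of 8 genes 4 lay below 0, each with both silenced arrays below both controls, as for 15.1% of all probe sets. These were ACLY, the citrate carrier SLC25A1 (-0.12), the acetyl-CoA synthetase ACSS2 (-0.14) and the acetyl-CoA carboxylase ACACA (-0.096). FASN, the fatty acid synthase, had 0.032, and the highest value was that of ME1, the malic enzyme (0.30, interval -0.15 to 0.75), which lay below the lower quartile of every array. The list median was -0.032.

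Among the 12 measured acyl-CoA synthetases, which activate fatty acids for elongation, 7 lay above 0, and the values ran from -0.21 for SLC27A5 to 0.13 for ACSBG1 with a median of 0.0010. The 5 measured ceramide synthases ran from -0.11 for CERS4 to 0.13 for CERS3, with a median of 0.0019. Among genes of peroxisomal chain shortening, the step that trims the longest polyunsaturated chains, 6 of 9 lay below 0 and 5 had both silenced arrays below both controls, namely ACOX2, ACAA1, PEX7, ACOX3 and ABCD2, again beside 15.1% of all probe sets. The lowest was ACOX2, a branched-chain acyl-CoA oxidase (-0.28, interval -0.71 to 0.15), the highest EHHADH (0.11), and the list median was -0.094. The list of acyl transfer into phospholipids and release, which also held the oxygenases PTGS1, PTGS2 and ALOX5, had 8 of 13 genes below 0. Its values ran from -0.31 for MBOAT1, a lysophospholipid acyltransferase (interval -0.89 to 0.27) that was low on replicate 2 of the silenced cells only, to 0.26 for PTGS2, the inducible cyclooxygenase (interval -0.13 to 0.65), with a median of -0.050. None of these genes passed an adjusted p of 0.05 or a fold of 1.5.

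The factors that control this family in other settings went both ways. SREBF1, the gene of SREBP-1, had log2 values of 8.15 and 8.34 with the CASP2 siRNA and 8.15 and 8.20 with the control siRNA, a log2 difference of 0.069 (interval -0.22 to 0.36). Of 15 measured regulators, 6 lay above 0 and the median was -0.014. Both silenced arrays lay below both controls for 4 of the 15 and above for 4, beside 15.1% and 14.5% of all probe sets. The highest was INSIG2, which retains SREBP in the endoplasmic reticulum, at 9.21 and 9.15 with the CASP2 siRNA and 8.87 and 8.98 with the control siRNA (0.26, interval -0.0019 to 0.52). The lowest was NR1H3, the oxysterol receptor LXR-alpha (-0.16, interval -0.46 to 0.14). Over the 9 pathway lists, no gene lay as low as ELOVL5.

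**Figure D4:**
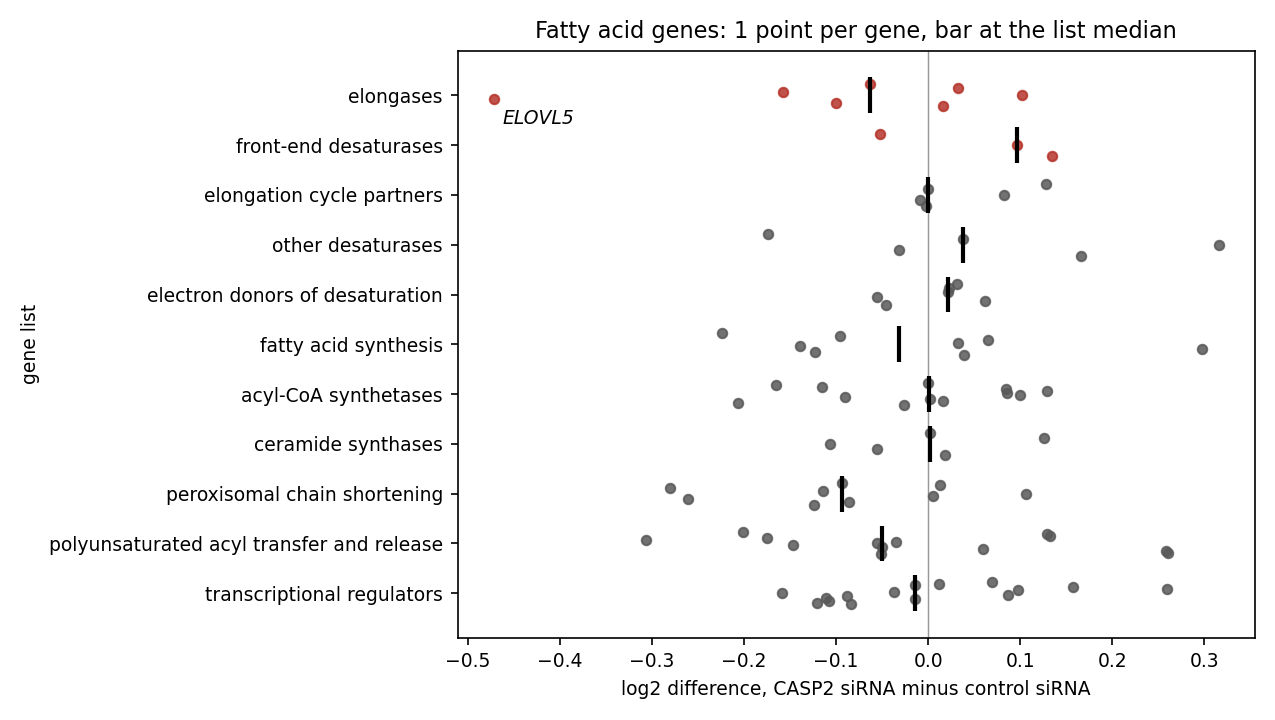
Genes of each list (y axis) by their log2 difference between CASP2 siRNA and control siRNA arrays (x axis), 1 point per gene by its brightest probe set, with black bars at list medians. Elongases and desaturases are red, and ELOVL5 at -0.47 is the lowest point of the lists plotted, which leave out the cell type markers, the next being MBOAT1 at -0.31.

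The 3 genes whose values followed ELOVL5 most closely over the 4 arrays, by Euclidean distance of the log2 values less the control mean, were TNFRSF12A, OTUD1 and VPS37C, at distances of 0.028, 0.035 and 0.045. TNFRSF12A, the receptor of the cytokine TWEAK, was at 11.09 and 11.10 with the CASP2 siRNA and 11.58 and 11.57 with the control siRNA (log2 difference -0.48). OTUD1, a deubiquitinase, was at 7.85 and 7.82 with the CASP2 siRNA and 8.26 and 8.33 with the control siRNA (-0.46). VPS37C, a subunit of the ESCRT-I sorting complex, was at 7.55 and 7.59 with the CASP2 siRNA and 8.03 and 8.02 with the control siRNA (-0.46). With 4 arrays many genes can match a pattern, so this is a description of likeness only.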

How the data were processed

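The deposited table holds log2 values that the authors made by Robust Multi-Array Average (RMA; version not given in the sources used here), which corrects background, equalizes probe distributions between arrays and summarizes each probe set. This largely removes a shift common to all genes and compresses folds near background. Symbols came from the platform annotation, updated by gene ID through RefSeq for 19128 of the 19158 probe sets with 1 symbol. The 4 arrays were compared by limma 3.58.1 (R 4.3.3; lmFit, then eBayes) as CASP2 siRNA minus control siRNA, with Benjamini-Hochberg adjustment over 32321 probe sets, and the fit was tested on simulated data. Intervals are 95% intervals on 2 residual and 2.47 prior degrees of freedom. Their width joins the spread of a probe set over these arrays with a spread pooled over all probe sets. Both reflect only how far these arrays spread, which may be technical. The number of arrays limits the precision. An exact permutation test could not go below p = 0.333 here.

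Pathway genes were represented by their brightest probe set. The members and lists were chosen with earlier results of these data known. Named genes were all members, CASP2, all genes of the lists of elongation cycle partners, other desaturases and electron donors, the extremes of the other lists, and the 3 genes nearest to ELOVL5; SREBF1, FASN, SLC25A1, ACSS2, ACACA, ACAA1, PEX7, ACOX3 and ABCD2 were named after their values were seen. Alternatives were the methods' t-test (standard deviation raised to its median), trend and robust eBayes, a further quantile normalization, no dim probe sets, linear means, a replicate block, each array left out, and other summaries of the relatives. Upstream windows were cut from RefSeq promoters, found for all 10 genes.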

Additional observations from a re-analysis of the deposited data

How the results depend on the processing

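The methods' t-test, trend and robust eBayes, the replicate block and the removal of dim probe sets leave a gene's log2 difference as it is. ELOVL5 stayed lower in silenced cells under the alternatives that could move its value. Its log2 difference was -0.49 to -0.46 when each array in turn was left out. There, a group of 1 array is assumed to vary like the other. The distance of ELOVL5 from the other members was -0.52 to -0.46 with an array left out and -0.45 against the other elongases only. It was also -0.45 without dim probe sets. Keeping only members above the median of every array leaves the same relatives, without ELOVL2, and so is the same calculation. The median of the other members ran from -0.026 to 0.058 over the arrays left out, and the signs of ELOVL2, ELOVL3, ELOVL7 and FADS2 turned with at least 1 array left out, so none of these has a settled direction. CASP2 ran from -2.20 to -1.93. The adjusted p of CASP2, 0.9999 by limma, was over the alternatives lowest at 0.062 (trend and robust options). That of ELOVL5, which is no test of it, was lowest at 0.20 (without CASP2 siRNA replicate 1) and was 0.32 with the trend and robust options; none passed 0.05. Numbers of probe sets past the fold and p of the study depended most on the setting. There were 107 higher and 117 lower by limma, 35 and 37 by the methods' t-test, 22 and 33 without dim probe sets, and 118 to 414 and 157 to 592 with an array left out. With the replicate block the counts were 142 higher and 160 lower, 0 probe sets passed adjustment, and the log2 differences were the same. Replicate 1 minus replicate 2 of the silenced cells correlated at 0.020, over 32321 probe sets, with the same difference in control cells. With so few arrays, this check cannot tell whether arrays of the same number were prepared together. List medians lay near 0 and moved with single arrays. With an array left out they ran from -0.035 to 0.086 for elongation partners, -0.018 to 0.094 for other desaturases, -0.042 to 0.078 for electron donors, -0.14 to 0.016 for fatty acid synthesis, -0.040 to 0.029 for acyl-CoA synthetases, -0.020 to 0.020 for ceramide synthases, -0.11 to -0.029 for peroxisomal genes, -0.087 to -0.010 for acyl transfer and release and -0.025 to -0.0066 for regulators. Without dim probe sets elongation partners had 0.041 and fatty acid synthesis -0.11, with a further quantile normalization ceramide synthases had 0.014 and regulators 0.012, and with the mean of all probe sets elongation partners had 0.062. The cause of these shifts was not tested. Folds of linear means give no count of calls. With 2 arrays a group, and signal near background for ELOVL2, small changes could not be seen.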
